A study of Homo sapiens with 4 samples.

Results

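The expression of 9 complement genes (CFI, CFB, C3, C1R, C1S, CD46, CD55, CD59 and SERPING1) was examined among the 58735 genes listed in RNA-seq tables of HaCaT cells, an immortalized line of human keratinocytes (written HaCAT in the labels). The genes were taken by name, as rows whose gene name equals a listed member, and the list was selected on results of this same comparison, the counts and log2 fold changes of siALKBH5 against siControl. Their difference between the groups is therefore a description, and no p-value is printed for them. Which of them passed a threshold is stated beside the share of all genes, and nothing is read from it. The cells were transfected with lipofectamine and either a control siRNA (siControl, genotype labelled WT) or an siRNA against ALKBH5 (siALKBH5, genotype labelled ALKBH5 knockdown). ALKBH5 is an eraser of m6A. Each group had 2 libraries of poly-A RNA. The labels do not name the ALKBH5 siRNA, the time after transfection or whether the libraries of a group came from separate cultures, so the errors measure the spread between these libraries, which may be technical.

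Complement is a cascade of plasma proteins that marks surfaces for removal. The classical branch is started by the proteases C1r and C1s, the alternative branch is amplified by factor B on C3b, and both meet at the cleavage of C3. Host cells carry regulators on their membrane that stop the cascade, and epidermal keratinocytes are known to make C3 and factor B, more so under inflammatory cytokines.

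CD46, C3 and CD59 held between 98.5% and 98.7% of all counts on the 9 genes in every library. The classical proteases C1R and C1S and the regulator CD55 were low, and CFB, CFI and SERPING1 had at most 8 counts in any library. CD46 was at 82.4% of its siControl level after ALKBH5 knockdown, while C3 was at 97.1% and CD59 at 106% of theirs. CD55 was at 132% of a low siControl level.

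The libraries held between 16017502 and 18837807 counts. ALKBH5 itself gave 1512 and 1576 counts under siControl against 956 and 816 under siALKBH5, or 55.5% of the siControl level (log2 fold change -0.85 with SE 0.05, edgeR adjusted p = 6.4e-15). All 10 keratinocyte markers were detected, and their summed level was 32220 to 32440 CPM (counts scaled to the library size with TMM factors) in siControl and 33270 to 33350 CPM in siALKBH5. Within this sum 4 of the 10 rose and 4 fell (edgeR, adjusted p under 0.05), where 36.6% of all genes passed in either direction. The markers that passed included KRT5 at 160% and KRT15 at 71.8% of the siControl level (adjusted p = 1.4e-27 and 3.4e-26 by edgeR). Of the markers of other cells that make complement, COL1A2 and PDGFRA of fibroblasts, AIF1 and CD163 of macrophages and TTR and FGB of hepatocytes had 0 counts in all 4 libraries. CD14 of macrophages, COL1A1, LUM and DCN of fibroblasts and CDH5 and VWF of endothelium were detected. The summed levels in siControl and siALKBH5 were 2.30 to 3.33 and 3.83 to 4.23 CPM for 6 macrophage markers, 21.9 to 22.8 and 18.7 to 19.1 CPM for 6 fibroblast markers, 32.5 to 32.6 and 35.0 to 35.5 CPM for 4 endothelial markers, 2.72 to 3.23 and 3.16 to 3.89 CPM for 4 melanocyte markers and 0.186 to 0.334 and 0.0535 to 0.0608 CPM for 6 hepatocyte markers. Of the fibroblast markers, DCN fell with a log2 fold change of -1.25 and LUM with -1.08 (adjusted p = 0.00050 and 0.021 by edgeR), while COL1A1, the most abundant, was at -0.04 (adjusted p = 0.79). CD14 rose with 0.64 (adjusted p = 0.034 by edgeR) but did not pass with DESeq2. VWF rose with 0.51 and CDH5 fell with -0.69 (adjusted p = 2.1e-05 and 5e-05 by edgeR). All libraries were of HaCaT, a single keratinocyte line, so these counts give no number of cells of other types. Fewer cells that express a marker and less RNA per cell cannot be told apart in bulk libraries. The relation of these markers to the values of the complement genes was not tested.

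The 9 genes lay on 6 chromosomes, and their levels ran from 450.2 CPM for CD46 to under 1 CPM for CFB, CFI and SERPING1, as the plot of levels by library shows. The filter on low counts of edgeR kept 6 of them, C3, C1R, C1S, CD46, CD55 and CD59. The other 3 were CFB, CFI and SERPING1.

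**Figure D1:**
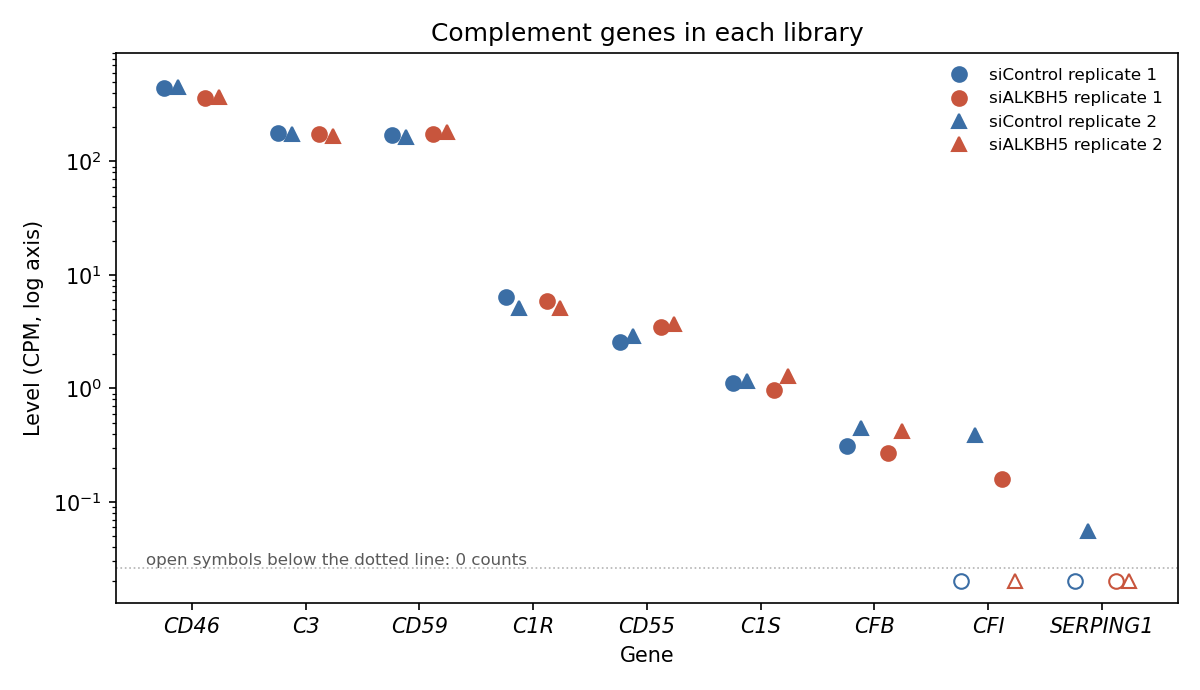
Level of each of the 9 genes in each library, in CPM on a log axis, with siControl in blue, siALKBH5 in red, circles for replicate 1 and triangles for replicate 2. CD46, C3 and CD59 sit above 160 CPM in all 4 libraries, CFB under 0.45 CPM, and open symbols mark libraries of CFI and SERPING1 with 0 counts.

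The classical branch was represented by its proteases. C1R (ENSG00000159403), the protease that activates C1s within the C1 complex, lies on the minus strand of chromosome 12 of GRCh38 from 7080199 to 7092607. It gave 103 and 92 counts under siControl, against 109 and 84 under siALKBH5. It stood at 5.75 ± 0.905 CPM (SD, n = 2) in siControl and 5.47 ± 0.517 CPM (SD, n = 2) in siALKBH5, and the groups overlapped. The log2 fold change of C1R was -0.06 with a standard error of 0.18, and its sign turned between -0.22 and 0.10 when single libraries were left out.

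C1S (ENSG00000182326), which cleaves C4 and C2, is the neighbour of C1R on the plus strand of chromosome 12 from 6988259 to 7071032. C1S shares 3.54% of its exonic bases with EMG1 on the same strand. It had 18 and 21 counts in siControl and the same pair of numbers, 18 and 21, in siALKBH5. It stood at 1.14 ± 0.0354 CPM (SD, n = 2) in siControl and 1.12 ± 0.221 CPM (SD, n = 2) in siALKBH5. The groups overlapped, and the standard error of its log2 fold change (-0.04) was 0.40, so a change of moderate size was not detectable at this depth. Its sign turned too, between -0.24 and 0.16. Per kilobase of listed gene length, C1R was 6.28 and 4.81 times as high as C1S in the siControl libraries and 6.65 and 4.39 times as high in the siALKBH5 libraries.

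SERPING1 (ENSG00000149131, chromosome 11 from 57597387 to 57614853) encodes the C1 inhibitor, the serpin that inactivates C1r and C1s. It had 1 count in 1 siControl library and 0 counts in the other 3 libraries. A count of 0 allows up to 3 counts, which is a level of 0.187 CPM in siControl replicate 1 and of 0.159 and 0.181 CPM in the siALKBH5 libraries. These limits cover counting error only, and no fold change was computed.

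Both proteins that form the alternative convertase were in the list, at very different levels. C3 (ENSG00000125730), the central component whose cleavage releases C3a and C3b, lies on the minus strand of chromosome 19 from 6677704 to 6730562. It gave 2841 and 3147 counts under siControl, against 3240 and 2756 under siALKBH5. These are 176.3 and 174.9 CPM in siControl and 173.5 and 167.5 CPM in siALKBH5. Each siALKBH5 library was lower than each siControl library, by a margin under the gap between the siALKBH5 libraries themselves. The log2 fold change of C3 was -0.04 with a standard error of 0.03, and it lay between -0.07 and -0.02 when the libraries were omitted singly.

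CFB (ENSG00000243649), the protease of the alternative convertase, lies on the plus strand of chromosome 6 from 31945650 to 31952084. It gave 5 and 8 counts under siControl, against 5 and 7 under siALKBH5, with overlapping groups. In the GENCODE 29 annotation, 45.5% of the exonic bases of CFB are shared with exons of C2 or of an annotated read-through gene of C2 and CFB, to which reads may have been ambiguous. The read-through row had 0 counts, and the counts summed over CFB, C2 and the read-through row were 12 and 14 in siControl and 15 and 17 in siALKBH5. Reads that the counting left out as ambiguous are not in this sum.

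The promoter of CFB is shown because its motifs for cytokine-driven factors are well known, while the gene had at most 8 counts here. RefSeq promoters on GRCh38.p14, each 300 bases around a start, were found for 6 of the 9 genes, which are CFI, CFB, C1R, CD46, CD55 and CD59, and not for C3, C1S and SERPING1. They were searched on both strands for the interferon-stimulated response element core (a pair of GAAA copies with 2 free bases between them), the GAS element (TTCNNNGAA), the C/EBP site (TTGCNNAA), the TATA box (TATAAA), the GC box (GGGCGG) and the NF-kB consensus. The CFB promoter held an element core on the minus strand, a GAS element and a TATA box 30 bases before the start, shown on the plus strand of chromosome 6 with the motif in capitals.
CFB element core, chr6:31945945-31945974: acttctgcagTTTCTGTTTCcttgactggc
CFB GAS element, chr6:31945993-31946022: cgcttggatgTTCCGGGAAagtgatgtggg
CFB TATA box, chr6:31946053-31946082: gaacacagattgTATAAAaggctgggggct
Of 35116 promoters of the same length, 3.57% held the element core, 7.66% the GAS element and 11.5% the TATA box. The GAS element was also matched in promoters of C1R and CD59, so in 3 of the 6 genes, and the C/EBP site in those of C1R and CD59, against 10.5% of all promoters. A gene was counted if any of its listed promoters matched, and CD59 had 4 of them and C1R and CD46 2 each. The shares are per single promoter, so the 2 kinds of count are not alike. The NF-kB consensus was in 5.91% of all promoters and in 0 of the 6 genes, within these 300 bases only. Sequence farther from the start was not searched. A match is a stretch of letters and says nothing of binding in these cells.

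CFI (ENSG00000205403, chromosome 4 from 109740694 to 109802179, minus strand) encodes factor I, the protease that cleaves C3b and C4b with the help of cofactors such as CD46. It gave 0 and 7 counts under siControl, against 3 and 0 under siALKBH5. Each group held a library with 0 counts, and the groups overlapped. In the annotation, 32.0% of its exonic bases are shared with another gene on the same strand, AC126283.2. No direction can be read from these counts.

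The membrane regulators held most of the counts. CD46 (ENSG00000117335), the membrane cofactor protein for the cleavage of C3b and C4b by factor I, lies on the plus strand of chromosome 1 from 207752057 to 207795513. It gave 7123 and 8100 counts under siControl, against 6782 and 6120 under siALKBH5. These are 442.1 and 450.2 CPM in siControl and 363.1 and 371.9 CPM in siALKBH5. The groups did not overlap, and the gap between them was wider than the spread within either. The log2 fold change of CD46 was -0.28 with a standard error of 0.03, between -0.30 and -0.26 when the libraries were omitted singly.

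CD55 (ENSG00000196352), the decay-accelerating factor that takes apart the convertases, lies on the same strand of chromosome 1 from 207321376 to 207386804. It gave 41 and 52 counts under siControl, against 65 and 61 under siALKBH5. It stood at 2.72 ± 0.244 CPM (SD, n = 2) in siControl and 3.59 ± 0.160 CPM (SD, n = 2) in siALKBH5. Each siALKBH5 library was higher than each siControl library, and the log2 fold change of CD55 was 0.40 with a standard error of 0.24, from 0.32 to 0.49 with single libraries omitted.

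CD59 (ENSG00000085063), protectin, which blocks the assembly of the membrane attack complex, lies on the minus strand of chromosome 11 from 33703010 to 33736491. CD59 shares 6.07% of its exonic bases with AL049629.2 on the same strand. It gave 2752 and 2945 counts under siControl, against 3227 and 2979 under siALKBH5. These are 170.8 and 163.7 CPM in siControl and 172.8 and 181.0 CPM in siALKBH5. The highest siControl library and the lowest siALKBH5 library were closer to each other than the libraries within a group. The log2 fold change of CD59 was 0.08 with a standard error of 0.04, from 0.05 to 0.12 with single libraries omitted.

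**Figure D2:**
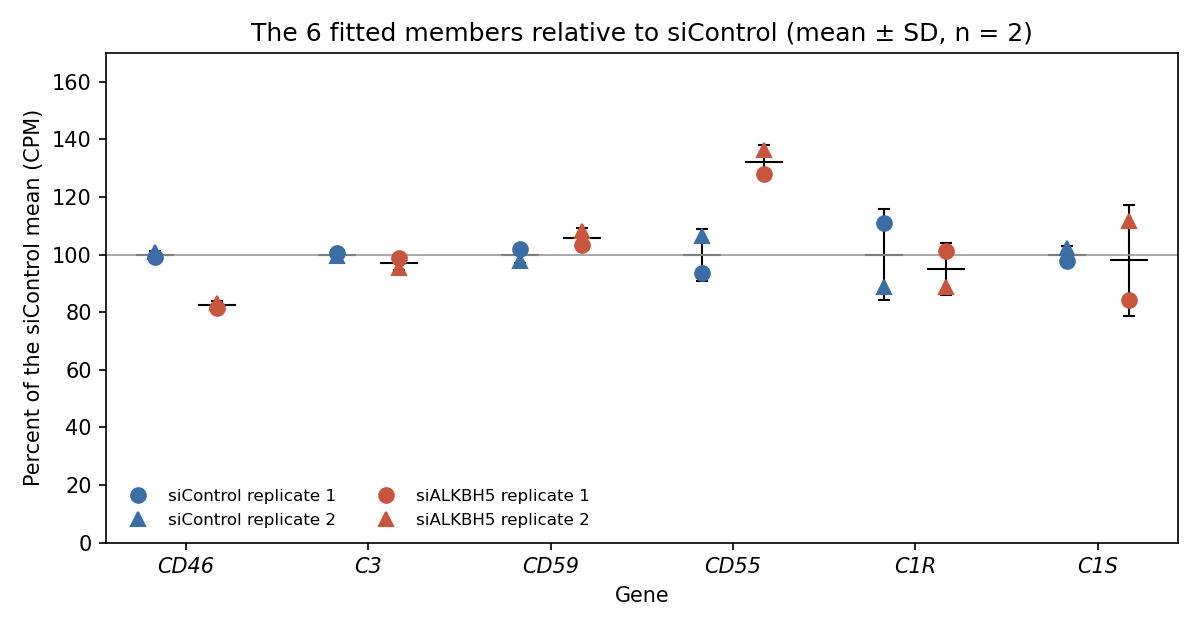
Level of the 6 fitted genes in each library as a percent of the siControl mean, on CPM, with siControl in blue, siALKBH5 in red, circles for replicate 1 and triangles for replicate 2. Black lines are the mean and SD of 2 libraries. CD46 sits at 81.4% and 83.4% in siALKBH5, CD55 at 128% and 136%, and the groups of C1R and C1S overlap.

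Of the 6 fitted genes, CD46 alone passed an adjusted p under 0.05 in edgeR's quasi-likelihood test across 15075 genes, in the lower direction, and 17.3% of all genes passed in that direction. In the higher direction 0 of the 6 passed with edgeR, against 19.3% of all genes, with 1 gene (CD59) at an unadjusted p under 0.05 and 0 with DESeq2. Over both directions the share of all genes was 36.6%. When |log2 fold change| also had to reach 1, 0 of the 6 passed with edgeR, at an unadjusted p under 0.05 or with DESeq2, against 2.92% of all genes, of which 1.62% were higher and 1.3% lower. Because the list was chosen with this comparison in view, nothing is read from these counts. The groups did not overlap in CPM for 4 of the 6 genes and for 66.3% of all genes tested. The median log2 fold change was -0.04 over the 6 genes and -0.0081 over all genes tested.

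The promoters of the membrane regulators are shown beside that of CFB because they differ in composition. CD46 and CD55 each had a GC box before the start, which reads CCGCCC on the plus strand shown, and the promoters of CD59 at the upstream start had theirs on the coding strand, shown here as the minus strand of chromosome 11.
CD46 GC box, chr1:207751978-207752007: aacgccgaggctCCGCCCcgcggcccgccg
CD55 GC box, chr1:207321620-207321649: ccagcccagaccCCGCCCaaagcactcatt
CD59 GC box, chr11:33736466-33736495: gggcatcctgagGGGCGGggccggggggcg
These are the first matches of each gene. The GC box was in 45.0% of all promoters and, among the 6 genes, in these 3, where any listed promoter of a gene counted. The ratio of observed to expected CpG was 0.756 and 0.741 in both listed promoters of CD46, 0.630 in that of CD55 and 0.62 and 0.675 in those at the upstream start of CD59, against 0.310 for CFB, 0.172 for CFI and a median of 0.579 over all promoters. The other listed promoters were those of C1R, at 0.475 and 0.268, and the downstream pair of CD59, at 0.0678 and 0.0513.

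ALKBH5 acts on m6A, which is placed mostly in a consensus of which GGACT is the common DNA form. In the longest protein-coding transcript of each gene in GENCODE 29, the density of GGACT per kilobase was 1.79 for SERPING1, 1.5 for C1R, 1.48 for CD46, 1.4 for CFB, 1.3 for C1S, 1.14 for C3, 0.926 for CFI, 0.524 for CD59 and 0.346 for CD55. The median over 19669 protein-coding genes was 0.927. The densities of SERPING1, C1R and CD46 were above those of 86.5%, 78.6% and 77.9% of these genes. For CFB, C1S and C3 the shares were 74.5%, 70.4% and 62.7%, and for CFI, CD59 and CD55 they were 49.9%, 24.3% and 15.2%. The relation of density to the log2 fold changes was not tested. Methylation was not measured in these libraries.

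The levels of different genes were compared per kilobase of the listed gene length, as FPKM recomputed from the counts and the library totals. CD46 was first in siControl at 51.5 ± 0.681 FPKM (SD, n = 2), followed by C3 at 21.2 ± 0.113 FPKM and CD59 at 16.2 ± 0.483 FPKM. C1R at 0.984 ± 0.154 FPKM, CD55 at 0.463 ± 0.0418 FPKM and C1S at 0.178 ± 0.00557 FPKM came next, then CFB at 0.0760 ± 0.0192 FPKM. CFI and SERPING1 were last, and the ranges of CFB and CFI and of CFI and SERPING1 overlapped in siControl. The order was the same in siALKBH5, where CD46 was at 41.8 ± 0.670 FPKM, C3 at 20.3 ± 0.522 FPKM and CD59 at 16.9 ± 0.543 FPKM.

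The place of CD59 depended on the length. Its listed length of 10358 bases is the union of all its exons, while its coding transcripts had a median of 749.5 bases. The longest of them had 7631 bases, where the longest coding transcripts of CD46 and C3 had 3371 and 5263 bases. The order per kilobase of the longest transcript was not computed. Counts cover the whole union of exons, so dividing them by a short median coding transcript can overstate the level of CD59. Per kilobase of the median coding transcript, an alternative chosen after seeing the data, CD59 was first at 225 FPKM in siControl and 234 FPKM in siALKBH5, above CD46 at 140 and 113 FPKM. The other 6 genes kept their places.

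**Figure D3:**
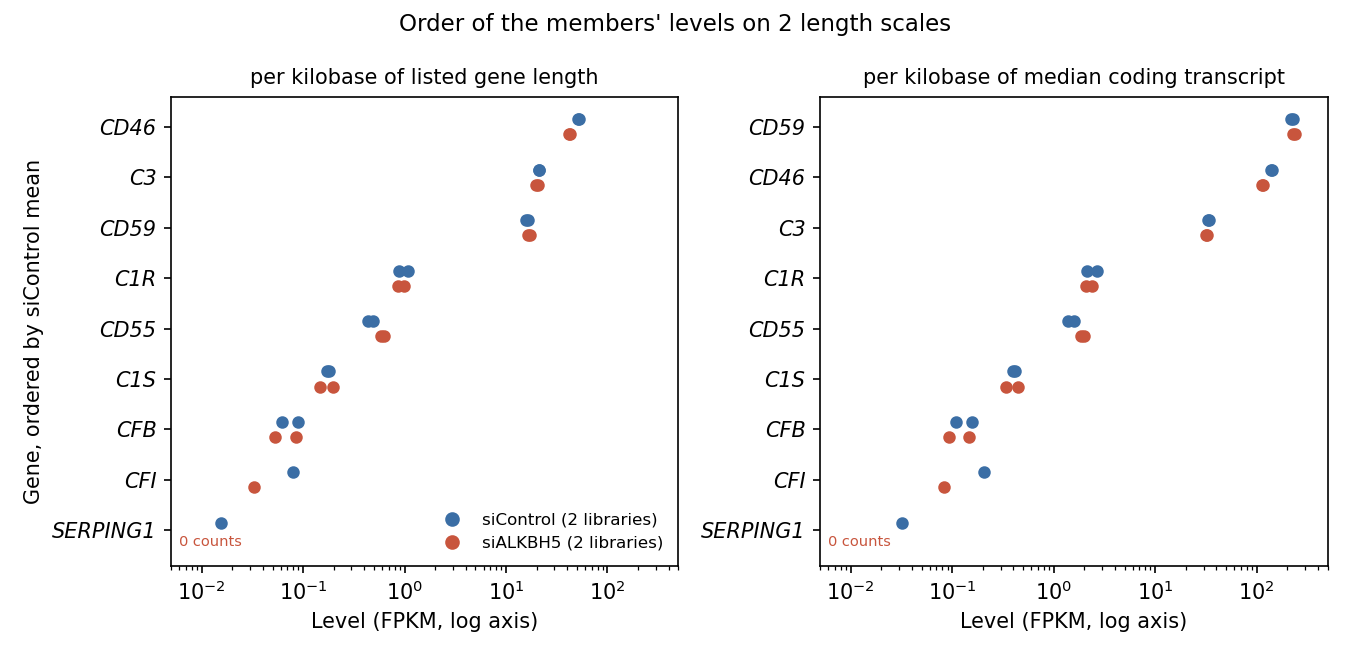
Level of the 9 genes in FPKM on a log axis, with the lowest and highest library of each group as points, ordered by the siControl mean from top to bottom. Left, per kilobase of listed gene length, CD46 leads at 51.5 FPKM. Right, per kilobase of the median coding transcript, CD59 leads at 225 FPKM, and the order from C1R down is the same in both. Libraries with 0 counts are not drawn.

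The proportions of the membrane regulators within a library are given as a description. The ratio of CD46 to CD59 per listed length was 3.08 and 3.27 in siControl and 2.50 and 2.44 in siALKBH5. The ratio of CD46 to CD55 was 118 and 106 in siControl and 70.8 and 68.1 in siALKBH5. For CD59 to CD55 the ratio was 38.3 and 32.3 in siControl and 28.3 and 27.9 in siALKBH5. The groups did not overlap in these 3 ratios, which share their genes and were not tested, and 66.3% of all single genes tested did not overlap either. The ratios to CD55 rest on its 41 to 65 counts. The ratio of C3 to CD46 was 0.417 and 0.406 in siControl and 0.50 and 0.471 in siALKBH5.

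**Figure D4:**
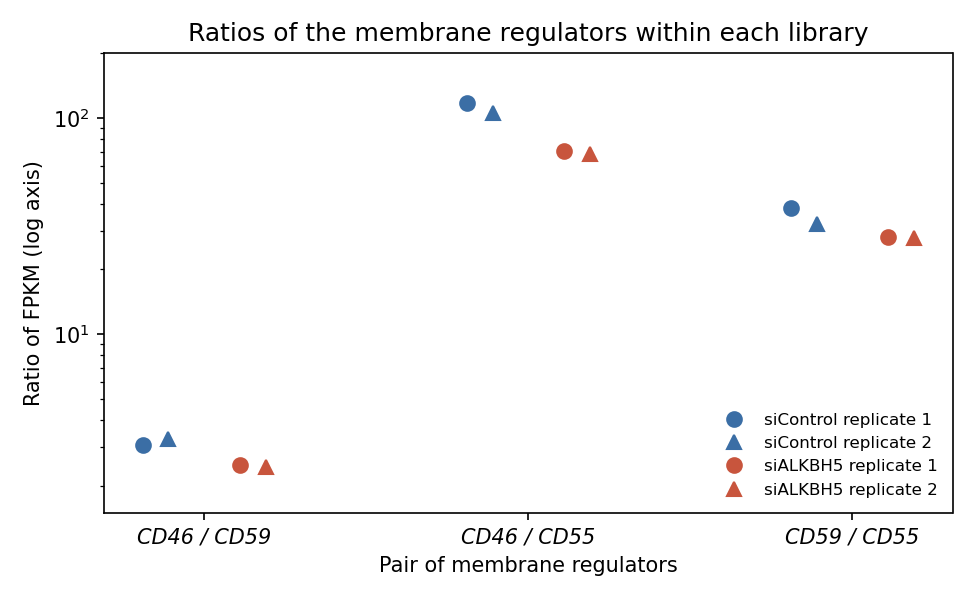
Ratio of the FPKM of pairs of membrane regulators in each library, on a log axis, with siControl in blue, siALKBH5 in red, circles for replicate 1 and triangles for replicate 2. The siALKBH5 libraries lie below the siControl libraries for all 3 pairs, with CD46 to CD55 at 118 and 106 in siControl and at 70.8 and 68.1 in siALKBH5.

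The other 44 genes of the complement system were taken from a list written by pathway. Of these, 21 had 0 counts in all 4 libraries and 7 had enough counts to be tested. Among the 7, 1 rose (CLU) and 1 fell (edgeR, adjusted p under 0.05), and the other 5 did not pass. Of all genes tested, 36.6% passed in either direction. The median log2 fold change was -0.08 over the 7 genes.

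CLU, clusterin, a soluble inhibitor of the terminal complex, gave 3043 and 3499 counts under siControl, against 3980 and 3494 under siALKBH5. It rose from 192 ± 3.97 CPM (SD, n = 2) to 213 ± 0.547 CPM (SD, n = 2), with a log2 fold change of 0.15 (SE 0.03, edgeR adjusted p = 0.00038).

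CFD, factor D, which cleaves factor B, gave 119 and 103 counts under siControl, against 78 and 94 under siALKBH5, with a log2 fold change of -0.41 (SE 0.18, edgeR adjusted p = 0.080). Single libraries moved this value, to -0.22 without siControl replicate 1, -0.19 without siALKBH5 replicate 1, -0.59 without siControl replicate 2 and -0.64 without siALKBH5 replicate 2, and it passed in the last pair (adjusted p = 0.020 and 0.015 by edgeR). C5, from which the terminal pathway starts, gave 124 and 119 counts under siControl, against 170 and 146 under siALKBH5, with a log2 fold change of 0.33 (SE 0.15, edgeR adjusted p = 0.073). MASP2, C8G and C5AR1 did not pass (edgeR adjusted p from 0.77 to 0.88).

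C2, C4A and C4B, the substrates of C1s, had at most 15 counts in any library and were not tested. C2 had 7 and 6 counts in siControl and 10 in each siALKBH5 library. C4A gave 7 and 15 counts under siControl, against 3 and 9 under siALKBH5, and C4B had 4 in each siControl library and 10 and 5 in siALKBH5. C4A and C4B are near-identical copies between which counting can split reads, so their separate values are uncertain. C1QA, C1QB and C1QC, the recognition subunits of C1, had 0 counts in all 4 libraries, as did the receptors CR1, CR2 and C3AR1.

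**Figure D5:**
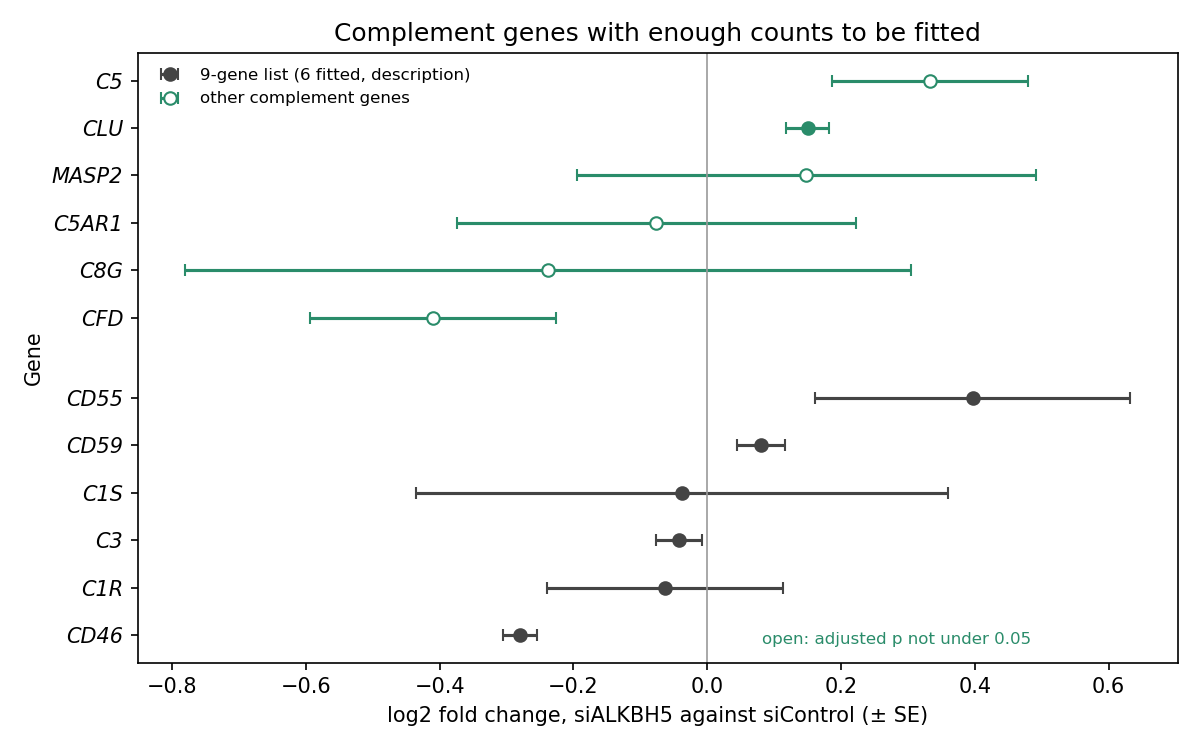
Log2 fold change of siALKBH5 against siControl with its standard error for the 6 fitted genes of the list (dark, below) and 6 of the 7 other complement genes tested (green, above). The filled green point, CLU at 0.15, passed an adjusted p under 0.05 by edgeR, and CD46 at -0.28 has the smallest error bar.

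SERPING1 also acts on the contact system, which releases bradykinin. Of its 6 genes, KLKB1, F11 and KNG1 had 0 counts and 3 were tested. BDKRB1, the inducible bradykinin receptor, rose from 4.02 ± 0.106 CPM (SD, n = 2) to 6.56 ± 0.264 CPM (SD, n = 2), from 66 and 71 counts to 119 and 111 counts (log2 fold change 0.70, SE 0.18, edgeR adjusted p = 0.0019). F12 and BDKRB2 did not pass (edgeR adjusted p = 0.62 and 0.082). Thus 1 of the 3 passed, where 36.6% of all genes passed in either direction.

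Complement genes are known to be induced by interferon-gamma, TNF, IL-1 and the IL-6 family, so 16 receptors and factors of these pathways were counted. All 16 were tested, and 3 were higher and 4 were lower (edgeR, adjusted p under 0.05), where 36.6% of all genes passed in either direction, with a median log2 fold change of -0.02. OSMR, the oncostatin M receptor, rose with a log2 fold change of 0.36 (SE 0.05, edgeR adjusted p = 1.4e-06). IL6ST, the shared signalling chain gp130 with which it pairs, fell with -0.44 (SE 0.06, edgeR adjusted p = 8.3e-07). IL1R1, the IL-1 receptor, fell with -0.63 (SE 0.13, edgeR adjusted p = 0.00036). CEBPB, a factor of the acute phase, rose with 0.19 (adjusted p = 0.00055 by edgeR), while IFNGR1 fell with -0.15 and STAT3 with -0.13 (adjusted p = 0.0061 and 0.0011 by edgeR).

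CD55 and CD59 are held in the membrane by a glycosylphosphatidylinositol (GPI) anchor, whereas CD46 spans it. Of 26 genes of GPI anchor synthesis and transfer, 25 were tested, of which 7 were higher and 4 were lower (edgeR, adjusted p under 0.05), where 36.6% of all genes passed in either direction, with a median log2 fold change of 0.03. PIGT, a subunit of the transamidase that attaches the anchor, rose from 119 ± 0.360 CPM (SD, n = 2) to 162 ± 2.06 CPM (SD, n = 2) (log2 fold change 0.45, SE 0.04, edgeR adjusted p = 8.1e-12). PGAP3 and PGAP1, which remodel the anchor after its attachment, fell with log2 fold changes of -0.53 and -0.42 (adjusted p = 1.7e-08 and 0.00045 by edgeR). DPM1 and PIGB, which act in the addition of its mannoses, fell with -0.36 and -0.34 (adjusted p = 4.3e-06 and 0.0075 by edgeR). All 4 lower genes are thus named, while PIGT is 1 of the 7 higher genes. The remaining higher genes had smaller changes, the largest in GPAA1 at 0.33 (adjusted p = 2.4e-06 by edgeR). The number of GPI genes that passed was 11 with all libraries, 6 without siControl replicate 1, 7 without siControl replicate 2, 9 without siALKBH5 replicate 1 and 7 without siALKBH5 replicate 2.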

How the data were processed

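HaCaT cells were transfected with siRNA and poly-A RNA was sequenced, 2 libraries per group. The authors deposited raw counts per gene and FPKM in 1 table per pair of libraries. The submitters' processing notes list HISAT2 2.0.5, featureCounts 1.5.0-p3, DESeq2 1.20.0 and hg38. Strand settings of the counting are not given in the sources used here. The deposited FPKM were not used, and the deposited fold changes and p-values, which compare 1 library with 1, were not used either. All 58735 gene identifiers had the coordinates of GENCODE 29. Counts of the 4 libraries were fitted together by the quasi-likelihood test of edgeR 4.0.16 under R 4.3.3, after filterByExpr and TMM scaling, with Benjamini-Hochberg adjustment over 15075 genes, and a gene passed at an adjusted p under 0.05. The rule in the study's methods also requires |log2 fold change| to reach 1. A figure legend of the study words the cutoff for its downregulated genes with a P value in place of an FDR. The same model gave the standard errors (SE). FPKM were recomputed from counts, listed length and library total. DESeq2 1.42.0, other scalings, filters, a replicate block and each library left out were alternatives. The steps were tested on simulated data. Replicates differed by 1.74 and 1.85 chi-square units per gene, where 1 is sampling noise, so they were kept as separate samples. Members and lists were chosen with earlier results of these data known. Genes named in the text are the 9 members, ALKBH5, up to 5 passing genes per list in order of absolute change where the mean CPM reached 1, and C2, C4A, C4B, CFD, C5 and CLU. Some genes of this rule are not reported here. Others were named after their values were seen, to complete small counts or to give marker levels.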

Additional observations from a re-analysis of the deposited data

How the results depend on the processing

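With DESeq2, 6 GPI anchor genes passed in place of 11 and 5 cytokine genes in place of 7. IFNGR1 and PIGB no longer passed (adjusted p = 0.064 and 0.062 by DESeq2). Of the markers, 6 of the 10 of keratinocytes, 1 of the 3 tested of fibroblasts and 0 of macrophages passed with DESeq2. The cause was not tested. With a log2 fold change of at least 1 required, 0 genes of the other complement, contact system, cytokine and GPI anchor lists passed with edgeR, 0 at an unadjusted p under 0.05 and 0 with DESeq2, and ALKBH5 at -0.85 did not reach this size either. With the replicate block, 2 other complement genes were lower in place of 1, since CFD passed (adjusted p = 0.047 by edgeR), and 8 cytokine genes passed in place of 7 and 12 GPI anchor genes in place of 11. Among the genes named by rule the block changed no other call, and the genes named after their values were seen were not followed through it. The labels do not say that a replicate marks a shared culture, and the correlation of the deviations of the first libraries from their group means was 0.0337. With each library left out in turn, 1 to 2 other complement genes were lower, 1 was higher, 1 contact system gene, 6 to 8 cytokine genes and 6 to 9 GPI anchor genes passed, and ALKBH5 stayed between -0.90 and -0.79. PIGB did not pass without siControl replicate 1 (0.12) and IFNGR1 not without siALKBH5 replicate 2 (0.051). CD46 was at -0.30 with library size only. Without the filter the log2 fold change of CFI was -1.18 with a standard error of 1.42 and that of CFB -0.14 with 0.74, so neither had a resolved direction. CFB summed with C2 and the read-through row gave 0.26 with a standard error of 0.46. The depth limits C1S, CFB, CFI and SERPING1.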
